A study of Saccharomyces cerevisiae with 6 samples.

Results

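Gluconeogenesis and the glyoxylate cycle were followed here through 10 genes, taken by gene name from the 5297 genes of the deposited mRNA table, and all 10 had a row. The genes encode the enzymes *ACS1*, *ICL1*, *MLS1*, *MDH2*, *CIT2*, *PCK1* and *FBP1*, the transporter *JEN1*, and the transcription factors *CAT8* and *SIP4*. The mRNA came from 6 meiotic cultures of the SK1 strain of budding yeast, 3 of *SPO11* cells and 3 of *spo11-YF* cells, collected at 4 h after transfer to medium with potassium acetate as the carbon source. In *spo11-YF* cells both copies of *SPO11* encode a protein whose catalytic tyrosine is exchanged for phenylalanine, so that meiotic DNA breaks cannot form. The name of this allele also lists an HA tag and *URA3*, and neither is listed at *SPO11* in the other strain. Both strains are diploids that lack *NDT80* (*ndt80Δ::TRP1*), which holds them in meiotic prophase, and *PPH3* (*pph3Δ::LEU2*), which encodes the catalytic subunit of protein phosphatase 4. Both also carry *ho::LYS2* and *lys2*. They further differ in marker genes, since *SPO11* cells have more copies of *LEU2* and *spo11-YF* cells list an additional *TRP1*. Whether the 3 cultures of each strain came from separate time courses is not stated in the sources used here. The medium in which the cells grew before meiosis also contained potassium acetate.

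Acetate cannot be used for biosynthesis before it is joined to coenzyme A. The glyoxylate cycle then builds malate and succinate from acetyl-CoA by bypassing the steps of the citric acid cycle that release carbon dioxide, and gluconeogenesis turns the resulting oxaloacetate into hexose phosphates. In growing yeast many of these genes are repressed by glucose and are activated on acetate, ethanol or lactate through the kinase Snf1 and the factors Cat8, Sip4 and Adr1.

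The values are the authors' mean of the normalized read counts over all libraries, with 1 value per gene. They have no SD and no n, the depth of single libraries is unknown, and both strains enter the same mean. The table also holds the authors' own comparison of *SPO11* with *spo11-YF* cells, which was not used here, so the text gives levels and no difference between the strains. The means of all 5297 genes added up to 2759217 normalized counts, with a median of 218.5 counts and a lowest value of 8.21 counts. To compare genes, each mean was divided by the coding length of the gene in kilobases, taken from the S288C annotation (assembly R64) for 5276 of the genes. Their median was 165.03 counts per kilobase. In bulk cultures, fewer cells that express a gene and less mRNA per cell cannot be told apart.

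Of the 10 genes, 8 lay far up the range of transcripts, whereas *CAT8* (percentile 64.5) and *FBP1* (percentile 49.3) were nearer its middle. Their median level was 3253 counts per kilobase, at percentile 98.7 of all genes, and 9 of the 10 lay above the median gene. The 8 genes were among the highest 10% of genes, and 4 of them among the highest 1%. Together the 10 genes held 3.28% of all normalized counts, and 1.73% without *ACS1*. From the most to the least abundant member, *ACS1* and *FBP1*, the level per kilobase differed 122.7-fold. In the order of levels, 7 of the 9 neighbouring pairs lay within 2-fold of each other. Because there is no value per culture, it cannot be said which of these neighbours differ beyond the spread between cultures.

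**Figure D1:**
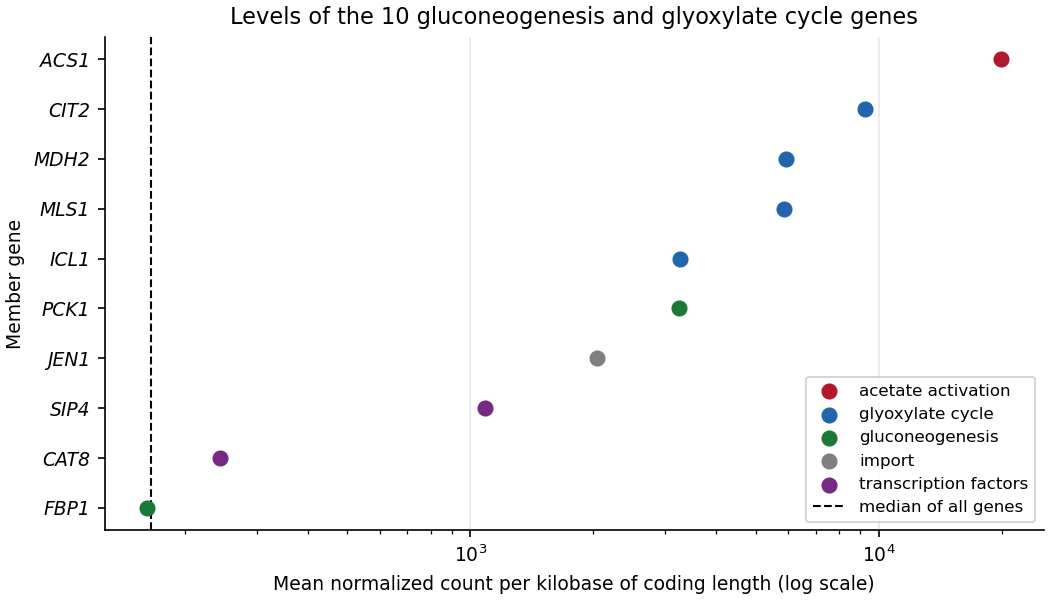
Level of each of the 10 genes as the mean normalized count per kilobase of coding length (log axis), with 1 point per gene coloured by its role and a dashed line at the median of all genes, 165.03. The points run from 19901 for *ACS1* to 162.2 for *FBP1*, which is the single gene below the line. The mean over libraries has no error bar.

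*ACS1* (YAL054C) encodes the acetyl-CoA synthetase that yeast uses on acetate and other non-fermentable carbon sources. Its mean of 42628 normalized counts was the highest of all listed genes and was 1.54% of their sum. Divided by its coding length of 2142 bases, it was 19901 counts per kilobase, which ranked 3 of 5276, behind the cell wall gene *SED1* (34303) and *ADY2* (26221). *ACS1* was therefore the top transcript by reads and was still in the top 3 by reads per length. It alone accounted for 47.1% of the counts of the 10 genes. *ACS2* encodes the other acetyl-CoA synthetase, which is needed for growth on glucose, and had 295.2 counts per kilobase. The level of *ACS1* was 67.4 times that of *ACS2*.

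The 4 members that act in the glyoxylate cycle followed *ACS1* in the order. *CIT2* (YCR005C), the peroxisomal citrate synthase, had a mean of 12757 normalized counts and 9224 counts per kilobase, at rank 9. *MDH2* (YOL126C), the cytosolic malate dehydrogenase, had a mean of 6726 and 5931 per kilobase, at rank 20. *MLS1* (YNL117W), the malate synthase that condenses glyoxylate with acetyl-CoA, had a mean of 9779 and 5873 per kilobase, at rank 21. *MDH2* and *MLS1* were thus nearly equal per length, with a ratio of 1.01, although *MLS1* had the larger mean. *ICL1* (YER065C), the isocitrate lyase that splits isocitrate into glyoxylate and succinate, had a mean of 5449 and 3255 per kilobase, at rank 66. The 4 genes spanned 2.83-fold from *CIT2* to *ICL1*. Together they made up 38.4% of the counts of the 10 genes and 1.26% of all counts.

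**Figure D2:**
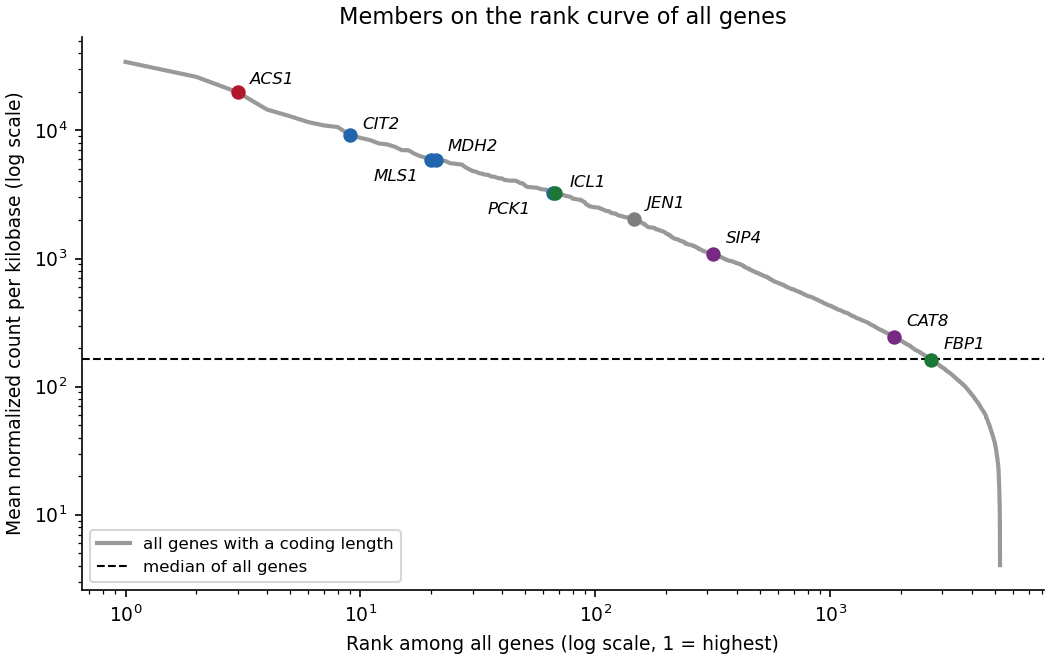
All 5276 genes with a coding length, ordered by mean normalized count per kilobase (both axes log), with the 10 members marked. *ACS1* is at rank 3, *CIT2* at 9, *MDH2* at 20 and *MLS1* at 21, and *FBP1* is at 2677, beside the dashed line of the median.

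Both gluconeogenic enzymes catalyse steps that glycolysis does not reverse, but their transcripts lay 20.04-fold apart per kilobase and 31.6-fold apart by mean count. *PCK1* (YKR097W), the phosphoenolpyruvate carboxykinase that opens the pathway from oxaloacetate, had a mean of 5363 normalized counts and 3250 per kilobase, at rank 67 and next to *ICL1*, with a ratio of 1.00 between them. *FBP1* (YLR377C), the fructose bisphosphatase near the end of the pathway, had a mean of 169.8 normalized counts and 162.2 per kilobase. It ranked 2677, at percentile 49.3, so its transcript stood at 0.98 times the level of the median gene. *FBP1* was the lowest of the 10 genes on every scale tried.

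Glycolytic enzymes that act in the other direction near these steps were set beside *FBP1* and *PCK1*. *PFK1* and *PFK2*, the subunits of phosphofructokinase, had 470.3 and 315.6 counts per kilobase, 2.90 and 1.95 times the level of *FBP1*. By mean count, with no division by length, these ratios were 8.21 and 5.35. *CDC19*, the main pyruvate kinase, had 518.3 counts per kilobase, and *PCK1* was 6.27 times as high. *PYK2*, the minor pyruvate kinase, had 218.1, and *PCK1* was 14.9 times as high. At the level of mRNA, the gluconeogenic gene was the higher of the pair at the pyruvate end and the lower at the fructose bisphosphate end.

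*JEN1* (YKL217W) encodes a carrier that imports small organic acids, lactate and pyruvate among them, together with protons. It had a mean of 3785 normalized counts and 2045 per kilobase, at rank 146. Neither lactate nor pyruvate is named as an ingredient of the sporulation medium, and which compounds Jen1 carried there was not tested. *ADY2*, which encodes an acetate transporter, had 26221 counts per kilobase, 12.8 times the level of *JEN1*, and 5.90 times by mean count.

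The transcription factors were the lowest of the genes apart from *FBP1*. *SIP4* (YJL089W) and *CAT8* (YMR280C) both encode zinc cluster proteins that bind the carbon source responsive element found upstream of gluconeogenic genes, and Cat8 is known to activate *SIP4*. *SIP4* had a mean of 2709 normalized counts and 1088 per kilobase, at rank 317. *CAT8* had a mean of 1053 and 244.7 per kilobase, at rank 1871 and percentile 64.5. *SIP4* was therefore 4.45 times as abundant as *CAT8* per length, and 2.57 times by mean count. *CAT8* has the longest coding sequence of the 10 genes, 4302 bases, and without division by length it stood at percentile 89.7.

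Several members have relatives that carry out the same or a similar reaction elsewhere, and the pairs differed widely. *MLS1* was 205.7 times as high as *DAL7*, the malate synthase of allantoin breakdown, which had only 28.6 counts per kilobase. *MDH2* was 1.89 times as high as *MDH1*, the mitochondrial enzyme (3138), and 4.13 times as high as the peroxisomal *MDH3* (1435). *CIT2* was 1.24 times as high as *CIT1* (7458) and 1.59 times as high as *CIT3* (5812), which encode mitochondrial citrate synthases. *ICL2*, which encodes a mitochondrial methylisocitrate lyase of propionate metabolism, had 3577 counts per kilobase against 3255 for *ICL1*, a ratio of 0.91. The member was thus the higher gene in 6 of 7 such pairs, with *ACS1* and *ACS2* counted among them, and the lower gene in the pair of *ICL1* and *ICL2*. For similar sequences such as *MLS1* and *DAL7*, the share of reads that the counting assigned to the wrong gene was not tested.

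**Figure D3:**
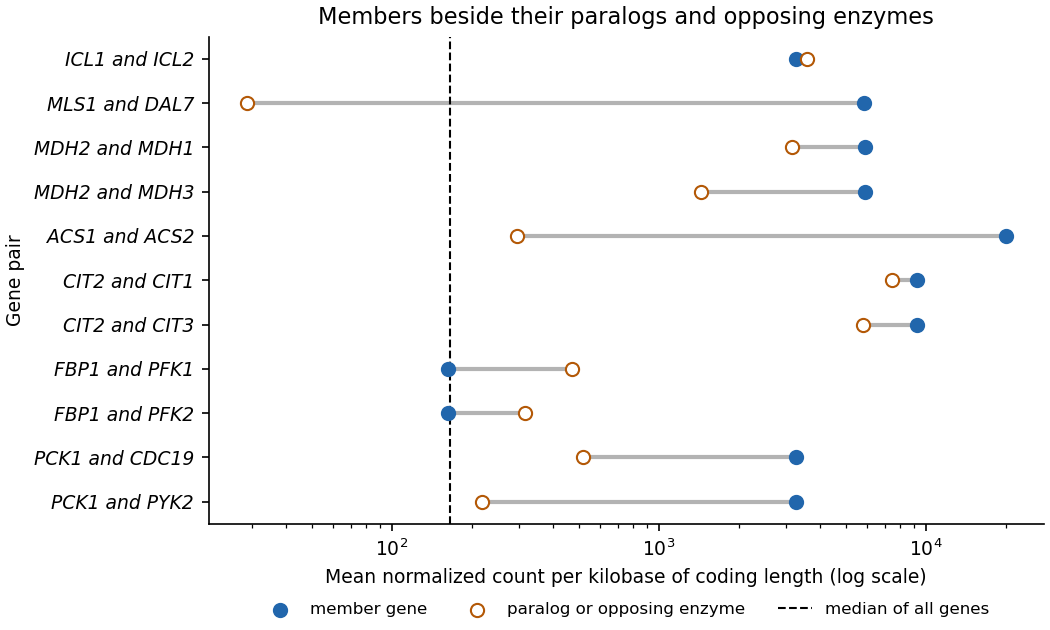
Mean normalized count per kilobase (log axis) of a member gene (filled) and of its paralog or the opposing glycolytic enzyme (open) in 11 pairs, with the median of all genes as a dashed line. *MLS1* and *DAL7* lie farthest apart, 5873 against 28.6, and *ICL1* and *ICL2* lie closest, 3255 against 3577.

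Genes grouped under acetate import and the carnitine shuttle were listed for comparison. All 8 had a row and lay above the median gene, and 5 of them were above *ICL1*. Their median was 4724 counts per kilobase, at percentile 99.4. The highest was *ADY2*, and *CAT2* (6570), *YAT2* (6132) and *YAT1* (5161), which encode carnitine acetyltransferases, came next together with *CRC1* (4288), the mitochondrial carnitine carrier. The lowest was *AGP2*, a carnitine importer of the plasma membrane, with 269.2 counts per kilobase. The list also holds *ATO2* (788.8) and *ATO3* (1395), and whether their products carry acetate was not tested. Of 9 enzymes and carriers beside the pathways, 8 lay above the median gene. They ranged from *FUM1*, the fumarase, at 4109 to *IDP3*, a peroxisomal isocitrate dehydrogenase, at 124.6 counts per kilobase. *PYC1* and *PYC2*, the pyruvate carboxylases that refill oxaloacetate, had 2341 and 420.5, a 5.57-fold difference between genes for the same reaction. For this pair too, the share of reads assigned to the wrong gene was not tested.

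The citric acid cycle shares its intermediates with the glyoxylate cycle. Its 16 listed genes had a median of 2975 counts per kilobase, at percentile 98.5, beside 98.7 for the 10 members. Of the 16 genes, 15 lay above the median gene and above *FBP1*, and 5 lay above *ICL1*. The highest was *CIT1*, with 7458 counts per kilobase. The 10 listed genes of the reversible steps that glycolysis and gluconeogenesis share had a median of 204.2 counts per kilobase, at percentile 58.2. *FBA1*, the aldolase, was the highest with 1213, and *PGI1*, the phosphoglucose isomerase, the lowest with 145.9. None of them reached *JEN1*, and 7 of the 10 were above *FBP1*. *TDH1*, at 161.98 counts per kilobase, was nearly level with *FBP1*, at 162.20. By mean count, only *TDH1* (161.8) and *GPM1* (130.5) were below *FBP1* (169.8). *PCK1* thus stood above all 10 of these genes, whereas *FBP1* lay within their range.

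**Figure D4:**
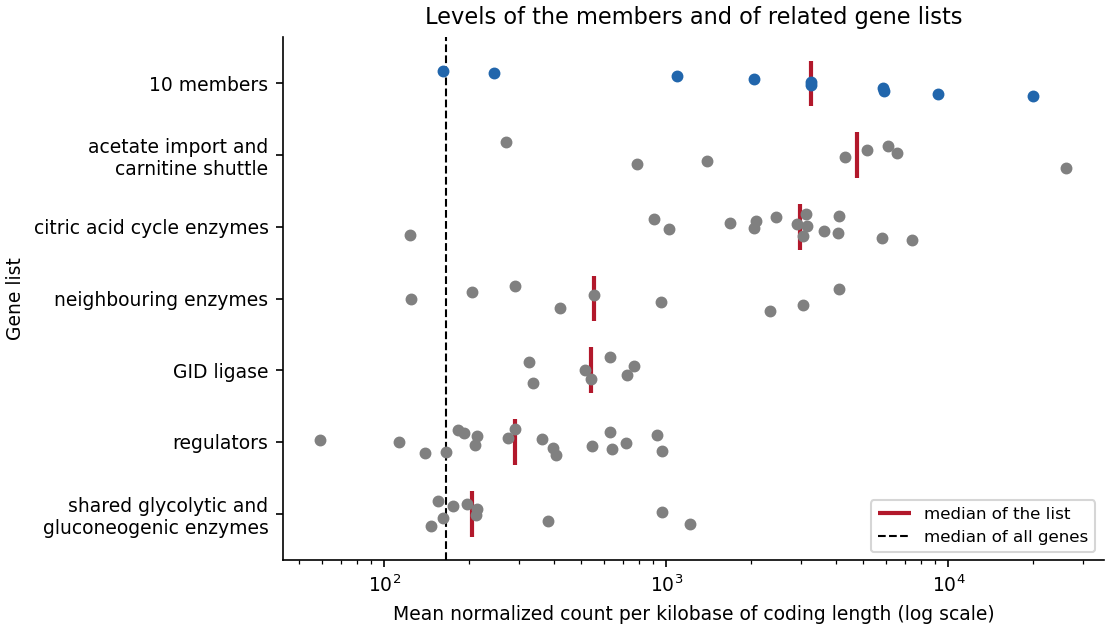
Mean normalized count per kilobase (log axis) of the 10 members and of 6 related gene lists, with 1 point per gene, a red line at the median of each list and a dashed line at the median of all genes. The medians of the members (3253), the acetate and carnitine genes (4724) and the citric acid cycle genes (2975) stand above those of the other lists. The lists were not tested against each other.

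Regulators of these genes were present at moderate levels. Of 20 listed regulators, 19 had a row, 16 of them lay above the median gene, and their median was 290.2 counts per kilobase. *SIP2*, a subunit of the Snf1 kinase, was the highest with 964.8, and *ERT1*, a transcription factor related to *RDS2*, was the lowest with 59.4. Per kilobase none reached *SIP4*, and 11 of the 19 were above *CAT8*. Without division by length the order differed. By mean count *ADR1* (2851) was above *SIP4* (2709). Only *ADR1*, *HAP4* (1542), *SIP2* (1204.1) and *REG1* (1203.8) were then above *CAT8* (1053). *ADR1*, which activates *ACS1* and other genes of acetate and ethanol use, had 717.9 counts per kilobase, 2.93 times the level of *CAT8*. *MIG1*, the glucose repressor, had 209.2. The GID ubiquitin ligase marks Fbp1, Pck1, Icl1 and Mdh2 for destruction when glucose returns. Of its 8 listed genes, 7 had a row and all 7 lay above the median gene, from 326.7 counts per kilobase for *FYV10* to 769.6 for *GID8*. *MIG2* and *VID28* were not analysed here.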

How the data were processed

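mRNA of 3 *SPO11* and 3 *spo11-YF* cultures was sequenced, and the groups came from the sample labels. Per the paper's methods, reads were aligned to SK1 through nf-core, quantified by gene with salmon and corrected for batch with ComBat-Seq before DESeq2 was run by the authors. The labels also name Trim Galore and STAR, and versions are not given in the sources used here. The deposited signal used here averages, for each gene, the normalized counts of the libraries into 1 number. No gene with a mean below 8.21 is listed, so percentiles refer to the listed genes. The 5 columns of the authors' own comparison (log2 fold change, its standard error, test statistic, p-value and adjusted p-value) were not used. The test planned for values per sample was not run, as the signal used here has none.

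Means were divided by S288C coding lengths (assembly R64), which can differ from those of SK1, and 21 genes had none. A gene's percentile is the percent of genes below it, with its own rank counted to the middle. Genes named are the 10 members, their paralogs, and the highest and lowest gene of each list, with further genes of the lists and *SED1* chosen after their values were seen. For 1 gene the value is not reported here. The members and lists were chosen with earlier results of these data known, and the opposing, shared glycolytic and citric acid cycle lists after the members' values were seen. No sequences were read, as no SK1 genome was used, so the planned promoter motifs were left out. The percentile calculation was checked on simulated levels without count noise, which tests the arithmetic and not the ranking of these genes. Python 3.11.15, numpy 2.4.6, pandas 2.3.3 and matplotlib 3.10.9 were used.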

Additional observations from a re-analysis of the deposited data

How the results depend on the processing

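Of the 10 genes, 9 lay above the median gene under each alternative. Their median percentile of 98.7 was 99.1 for mean counts with no division by length and 98.96 with 200 bases added to each coding length for untranslated regions. The ratio of *ACS1* to *FBP1* was 251.0 with no division by length and 133.7 with the added bases, against 122.7, as *FBP1* has the shorter coding sequence. Keeping only genes with a mean of at least 10 counts moved no member by more than 0.12 percentile points. Without division by length, 2 members changed place in the order, *MDH2* and *MLS1*, and the percentile of a single member moved by up to 25.1 points, that of *CAT8*. With the added bases the same 2 genes changed place. None of the 7 ratios to paralogs changed direction. No paired analysis was possible because the mean used here joins all cultures. Count models, filters on single libraries and leaving out replicates were therefore not run, and promoter windows were not compared. Errors from depth, batch adjustment and library quality cannot be computed from a mean.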

Other observations

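Among the 20 genes with the highest counts per kilobase, 3 were members, *ACS1*, *CIT2* and *MDH2*. The other 17, in order of level, were *SED1* (34303 counts per kilobase), *ADY2* (26221), *UTH1* (14574), *PRB1* (12937), *TEF2* (11623), *POR1* (10941), *RIM4* (10643), *ACH1* (8757), *SLZ1* (8402), *PDH1* (7913), *PDI1* (7791), *CIT1* (7458), *ADH2* (7018), *DMC1* (7007), *CAT2* (6570), *SSA3* (6291) and *YAT2* (6132). No grouping of these genes was tested. For genes with a close relative, such as *TEF2* and *TEF1* (5419), the share of reads assigned to the wrong gene was not tested. *RIM4* encodes a meiotic translational repressor, *DMC1* the meiotic strand exchange protein and *PRB1* a vacuolar protease.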
